A study of Mus musculus with 6 samples.

Results

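The TALE homeobox cofactors of the Meis, Pbx and Pknox families were followed through leukaemic bone marrow cells of 6 mice. The 8 genes Meis1, Meis2, Meis3, Pbx2, Pbx3, Pbx4, Pknox1 and Pknox2 were taken by name from the deposited table, which lists 55401 genes. Each of the 6 mice had received a secondary transplant of a HoxA9/Meis1 leukaemia and gave 1 library of total RNA. The Lym group (mice 62, 63 and 87) holds lymphoid cells, labelled Lym+, from recipients of lymphoid leukaemic stem cells. The Lin- group (mice 56, 57 and 91) holds lineage-negative, Kit-positive progenitor cells from recipients of Lin- leukaemic stem cells. All 6 leukaemias thus carry HoxA9 and Meis1, the control group included. The labels name no vector or promoter for these genes, no age or strain of the mice, and no donor for each recipient, so the tests take each mouse as independent and measure only the spread between these mice. Reads of an introduced Meis1 or Hoxa9 copy and of the endogenous gene cannot be told apart in these gene counts.

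TALE homeodomain proteins carry 3 extra amino acids, a proline, tyrosine, proline loop, between the first and the second helix of the homeodomain. Meis and Pknox proteins bind Pbx proteins through a domain at their amino-terminal end, which keeps Pbx in the nucleus, and these dimers join Hox proteins on DNA. In myeloid leukaemia Meis1 is known as the partner that speeds up transformation by Hoxa9, and Pbx3 is the Pbx protein most often linked to Hoxa9-driven disease. Pknox1, also called Prep1, competes with Meis1 for Pbx.

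The loop is the feature that places these genes in one class, and it bears on the counting, since reads from paralogs with nearly the same homeobox could be assigned to the wrong gene. The windows below are 57 coding bases each, read 5′ to 3′ from GENCODE M21 transcripts of GRCm38, with the 9 loop bases in capitals, for the 5 members whose sequences were printed.
Meis1: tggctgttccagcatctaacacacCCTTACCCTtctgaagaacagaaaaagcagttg
Meis2: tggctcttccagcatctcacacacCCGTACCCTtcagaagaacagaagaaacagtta
Meis3: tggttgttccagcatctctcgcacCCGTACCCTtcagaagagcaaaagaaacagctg
Pbx2: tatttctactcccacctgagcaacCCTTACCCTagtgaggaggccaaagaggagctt
Pbx4: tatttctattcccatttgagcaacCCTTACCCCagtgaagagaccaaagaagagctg

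Within a family the windows were close. Meis1 and Meis2 agreed at 50 of 57 bases, Meis1 and Meis3 at 46, Meis2 and Meis3 at 49, and Pbx2 and Pbx4 at 49. Across families Meis1 and Pbx2 agreed at 33 of 57 bases but at all 9 loop bases. In the Meis genes the window joins exons 8 and 9 of the transcript used and spans an intron (Meis1, minus strand, chr11:18905730-18941679; Meis2, minus strand, chr2:115921713-116000151; Meis3, plus strand, chr7:16182448-16183826). In Pbx2 (chr17:34594631-34594687, plus strand) and Pbx4 (chr8:69866517-69866573, plus strand) it lies inside exon 5.

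Counted as exact matches, these likenesses left little room for reads to be swapped between members. Alignment with mismatches was not examined. The reads were 38 bases long. Of the 10757 different 38-base words in annotated Meis1 transcripts, 0 occurred in a transcript of another member, and the same count of 0 held for Meis3, Pbx2, Pbx3, Pbx4 and Pknox1. Meis2 and Pknox2 each had 2 words shared with another member, out of 12042 and 10478. Sharing with genes that overlap a member on the genome was larger. Of the Meis1 words, 17.4% also occurred in transcripts of other genes, but 0.13% when the genes overlapping it were left out. For Pbx2 these shares were 5.26% and 0%, all of it shared with its neighbour Gpsm3.

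The lymphoid libraries differed among themselves, and that of mouse 87 stood closest to the other group, which touches each comparison below. Reads assigned to genes came to between 18537700 and 22634286 per library. Across genes, the Lym library of mouse 87 had Pearson correlations of log2 values of 0.965 to 0.979 with the Lin- libraries but of 0.927 to 0.948 with the other Lym libraries, given without a test. The other Lym libraries were nearest to each other or to Lin- mouse 57. Lym mouse 63 had 0.961 with Lin- mouse 57 and 0.958 with Lym mouse 62, and Lym mouse 62 had 0.943 with Lin- mouse 57. The lymphoid libraries thus did not form a group apart by this measure. Of 8 B-lineage markers, Pax5 had at most 1 read in any library. Il7r, a receptor of early lymphoid cells, had 378, 74 and 15 reads in Lym mice 62, 63 and 87 against 3 to 4 in Lin-. Thus the defining B-cell marker Pax5 was absent or nearly so from the libraries labelled lymphoid. Kit was present in every library. It was at 18902, 12027 and 3158 normalized counts in Lym mice 62, 63 and 87 and at 4953, 6066 and 3420 in Lin- mice 56, 57 and 91. Lym mice 62 and 63 thus lay above every Lin- library, while the lowest value was in Lym mouse 87. Summed granulocyte markers made up 2532 to 2824 CPM (reads scaled to the library total) in Lym, 3235 and 3320 CPM in Lin- mice 56 and 91 and 6546 CPM in Lin- mouse 57. Mpo, Elane and Prtn3 carried that sum, while S100a8, S100a9 and Ltf, the other genes of the list of 6, had at most 25 reads in any library. The labels give 1 ng of input RNA for Lym mouse 62 and 2 ng for every other library. In bulk libraries fewer cells of a type and less RNA per cell cannot be told apart.

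In all 6 libraries the order of the expressed members was the same: Meis1, then Pknox1, Pbx2, Pbx4 and Pbx3, by normalized count per kilobase of merged exons. Meis2, Meis3 and Pknox2 were at the edge of detection. The level per kilobase lay between 1073 and 2146 for Meis1, between 279 and 352 for Pknox1, between 160.0 and 204 for Pbx2, between 76.4 and 143 for Pbx4 and between 13.6 and 45.8 for Pbx3. The ranges of neighbours in this order did not overlap. The gap from the highest Pbx4 value, 143, to the lowest Pbx2 value, 160.0, was narrower than the spread of Pbx4 over the 6 mice. Meis1 ranked between 270 and 696 by level per kilobase among the 19427 to 24027 genes with a read in a library. Pknox1 ranked between 2883 and 3571, and Pbx3 between 9826 and 12963. Meis1 made up 62.3% to 77.8% of the summed level per kilobase of the 8 genes. The level, rank and share of Meis1 take its merged exons as the length, which reads of an introduced copy need not cover.

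**Figure D1:**
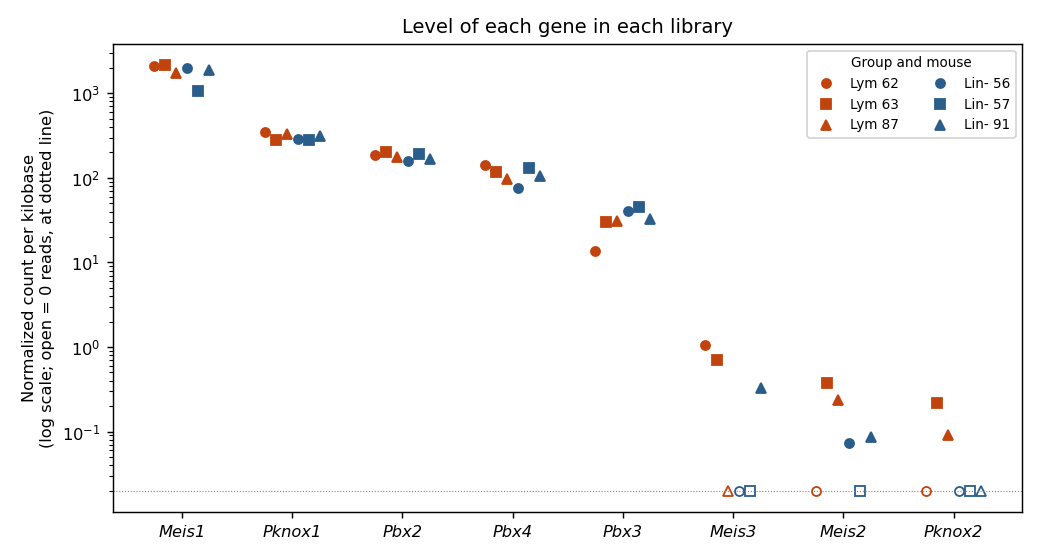
Normalized count per kilobase of merged exons (log axis) of the 8 genes in each library, coloured by group and shaped by mouse, with open symbols at the dotted line for 0 reads. Meis1 lies at 1073 to 2146 in every library and the ranges of the 5 expressed genes do not overlap, while Meis3, Meis2 and Pknox2 hold at most 4 reads.

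Differences between the groups were taken as Lym minus Lin- on log2(normalized count + 2), with limma over 14273 genes and Benjamini-Hochberg adjusted p-values. No member passed an adjusted p of 0.05, where the share of all genes tested that did was also 0%. Of the 8 members, 5 passed the filter on low values (10 or more normalized counts in 3 or more libraries), 4 with higher and 1 with lower mean values in Lym. Their median log2 fold change was 0.14, against -0.01 over all genes tested. None had an unadjusted p under 0.05, against 10.2% of all genes. In 1 member, Pbx3, the groups did not overlap, against 15.6% of all genes, and 7.08% in the direction of Pbx3. Of the 31604 genes with an adjusted p in the authors' deposited DESeq2 table, 0.32% were past an adjusted p of 0.05 and 4.87% had a p under 0.05. No member was among the former and 1, Pbx3, was among the latter.

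Meis1, the Meis gene that names this leukaemia together with HoxA9, was high in both groups (identifier ENSMUSG00000020160.18; minus strand, chr11:18879817-19018985 in GRCm38, 11 merged exons). Its normalized counts in Lin- were 20731 in mouse 56, 11303 in mouse 57 and 20123 in mouse 91. In Lym they were 22090 in mouse 62, 22600 in mouse 63 and 18190 in mouse 87. The value of Lin- mouse 57 was far below the other 5, and the Lym value of mouse 87 lay between the Lin- values, so the groups overlapped. The log2 fold change was 0.32 ± 0.23 (SE, n = 3 each; limma adjusted p = 0.635), with a 95% interval from -0.21 to 0.84. Without Lin- mouse 57 it was 0.03 ± 0.15. The same library had the highest granulocyte marker sum, as given above, and the part of that in the low Meis1 value was not tested.

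Hoxa9, the homeobox gene that partners Meis1, followed it across the 6 libraries. Among 9186 named genes with a mean of at least 100 normalized counts, Hoxa9 had the smallest root mean square difference from Meis1 in mean-centred log2 values, 0.11, where Meis1 itself varied by 0.34. Next came Ralgds, an exchange factor for Ral GTPases (0.135), and the zinc finger gene Zbtb45 (0.139). The likeness rests largely on the low library of mouse 57, in which Hoxa9 was at 5224 normalized counts against 8667 to 11116 in the other 5. Within a library the ratio of Meis1 to Hoxa9 does not depend on the scaling. It was 2.39, 2.16 and 1.92 in Lin- mice 56, 57 and 91, and 2.20, 2.03 and 1.95 in Lym mice 62, 63 and 87. Thus the ratio in mouse 57, whose levels of both genes were low, lay inside the range of the others. The mean ratio was 2.06 ± 0.13 in Lym and 2.16 ± 0.24 in Lin- (SD, n = 3 each). On the log2 scale the difference was -0.06, and an exact two-sided permutation test gave p = 0.70, where the smallest p that 3 against 3 can give is 0.1. Per kilobase of merged exons the ratio ran from 1.02 to 1.27. This takes the merged exons as the length for both genes, which reads of an introduced copy need not cover.

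**Figure D2:**
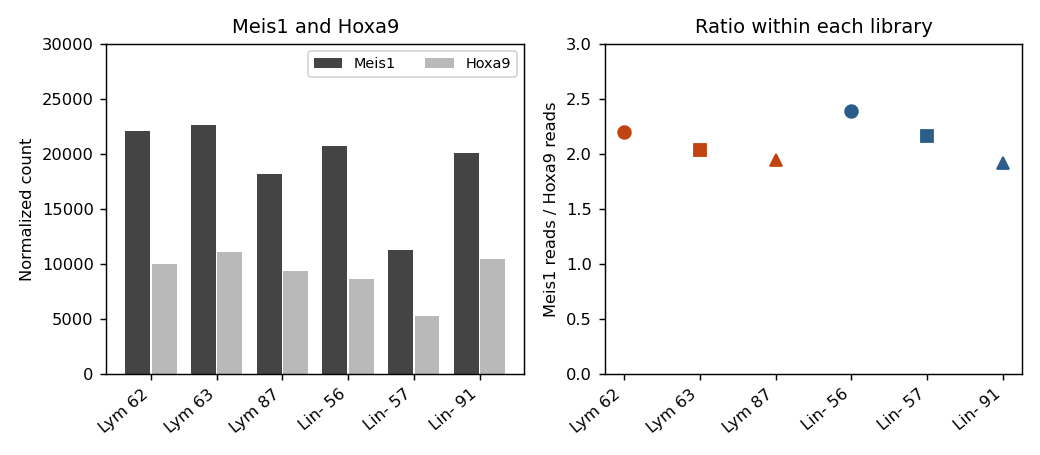
Left, normalized counts of Meis1 (dark bars) and Hoxa9 (light bars) in each library; right, Meis1 reads divided by Hoxa9 reads in the same library, coloured by group. Both genes are lowest in Lin- mouse 57 (11303 and 5224), while the ratio stays between 1.92 and 2.39 in all 6 libraries.

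The other Hoxa and Hoxb genes listed as possible partners of these cofactors were nearly without reads. No Hoxc or Hoxd gene was on the list. Of 16 listed Hoxa and Hoxb genes, 8 had no read in any library and 14 had at most 3 reads in each library. Besides Hoxa9 the exception was Hoxa7, with 9.53 normalized counts in Lym mouse 87 and none elsewhere. Hoxa10 and Hoxa11, which belong to the same cluster as Hoxa9, were among the 8. For a count of 0 a limit of 3 reads in a library was set, which equals 2.64 to 3.36 normalized counts. The exact two-sided Poisson 95% interval of a count of 0 reaches slightly higher, to 3.69 reads.

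The other genes of the Meis family were barely detected. Meis2 (minus strand, chr2:115863064-116065839) had 1, 0 and 1 reads in Lin- (mice 56, 57 and 91 in this order) and 0, 4 and 3 in Lym (mice 62, 63 and 87). Meis3 (plus strand, chr7:16175090-16186504) had 0, 0 and 1 reads in Lin- and 3, 2 and 0 in Lym, the mice in the same order. The highest value, 4 reads of Meis2 in Lym mouse 63, has an exact Poisson 95% interval of 1.09 to 10.2 reads. A difference between the groups was not detectable for either gene at this depth, and no fold change is given. Meis1 had at least 12843 reads in every library, so that of the Meis genes it alone was measured with precision.

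Genes that overlap Meis1 on the genome held almost no reads. Gm16140, on the opposite strand, shares 896 exon bases with it and was at 7.83 normalized counts in Lym mouse 63 and 0 elsewhere. Gm37818, on the same strand, shares 1029 exon bases and was at 0 in all libraries. The other 3 overlapping gene models share no exon base with Meis1 and were at 0. How reads in shared bases were assigned is not given in the sources used here, so a 0 for such a gene model need not mean that its bases had no reads.

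Among the Pbx genes, which bind DNA beside Hox and Meis proteins, Pbx2 and Pbx4 were the more abundant and overlapped between groups, while Pbx3 was the least abundant and had its 3 lowest values in Lym. Pbx3 (ENSMUSG00000038718.15; minus strand, chr2:34171457-34373142, 11 merged exons) was at 249, 280 and 200.1 normalized counts in Lin- mice 56, 57 and 91. In Lym it was at 83.0, 185 and 188 in mice 62, 63 and 87. The 3 Lin- values all lay above the 3 Lym values. The gap was narrow, since Lym mouse 87 with 197 reads (exact Poisson 95% interval 162 to 216 normalized counts) and Lin- mouse 91 with 194 reads (173 to 230) overlapped within counting error. Lym mouse 62 stood lowest, with 74 reads (65.2 to 104 normalized counts), outside the counting intervals of the other 5 libraries.

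The mean of Pbx3 was 152 ± 59.6 in Lym and 243 ± 40.2 in Lin- (SD, n = 3 each). Its log2 fold change was -0.75 ± 0.35 (SE; limma unadjusted p = 0.0604, adjusted p = 0.499), with a 95% interval from -1.54 to 0.04. Without Lym mouse 62, the library made from 1 ng of RNA, it was -0.37 ± 0.24 (limma adjusted p = 0.852). Without Lym mouse 87 it was -0.95 ± 0.36 (limma adjusted p = 0.129). The authors' deposited table gives Pbx3 a log2 fold change of 0.50 with a standard error of 0.25, positive where Lin- is higher, with p = 0.0469 and an adjusted p of 0.964. The Lym library of mouse 62 also had the highest summed B-lineage markers, at 51.5 CPM against 2.61 to 21.1 CPM in the others, and the highest megakaryocyte markers, at 26.3 CPM against 0.90 to 10.6 CPM. In that library the B-lineage sum was carried by Il7r (378 reads), Cd79b (227), Dntt (193), Rag1 (93) and Ebf1 (53), with Pax5 at 0. The megakaryocyte sum was carried by Itga2b (487 reads), with 3 reads of Pf4 and none of Ppbp. The part of these markers in the low Pbx3 value was not tested.

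Pbx2, a broadly expressed Pbx gene (ENSMUSG00000034673.14; plus strand, chr17:34591266-34597400), varied little. It was at 582, 698 and 605 normalized counts in Lin- mice 56, 57 and 91 and at 671, 743 and 642 in Lym mice 62, 63 and 87. The groups overlapped, and the mean was 685 ± 52.0 in Lym and 629 ± 61.2 in Lin- (SD, n = 3 each). The log2 fold change was 0.13 ± 0.15 (SE, limma adjusted p = 0.780; 95% interval -0.21 to 0.47). Its coefficient of variation over the 6 libraries was 9.06%, the lowest of the expressed members. Gpsm3, which shares 227 exon bases with Pbx2 on the same strand, lay between 537 and 754 normalized counts.

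Pbx4, the Pbx gene with the shortest merged exons (ENSMUSG00000031860.17; plus strand, chr8:69832491-69872292), had its highest value in Lym and its lowest in Lin-, with overlap between. It was at 169, 291 and 231 normalized counts in Lin- mice 56, 57 and 91 and at 317, 261 and 212 in Lym mice 62, 63 and 87. The log2 fold change was 0.21 ± 0.27 (SE, limma adjusted p = 0.797; 95% interval -0.40 to 0.81). Without Lin- mouse 56, which had the lowest value, it was 0.0034, and without Lin- mouse 57 it was 0.39. Single animals thus moved this difference by about its whole size.

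The makeup of the 3 Pbx genes by level per kilobase was led by Pbx2, which held 52.0% to 58.2% of their sum. Pbx4 held 27.6% to 42.0%. Pbx3 held 14.7%, 12.4% and 10.8% in Lin- mice 56, 57 and 91, and 3.98%, 8.59% and 10.1% in Lym mice 62, 63 and 87. As with its level, Lym mouse 62 stood lowest and Lym mouse 87 lay next to Lin- mouse 91. The summed normalized counts of the 3 genes were 1101 ± 77.3 in Lym and 1102 ± 146 in Lin- (SD, n = 3 each), a difference far smaller than the spread between mice. Shares and sums over members carry no test here.

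**Figure D3:**
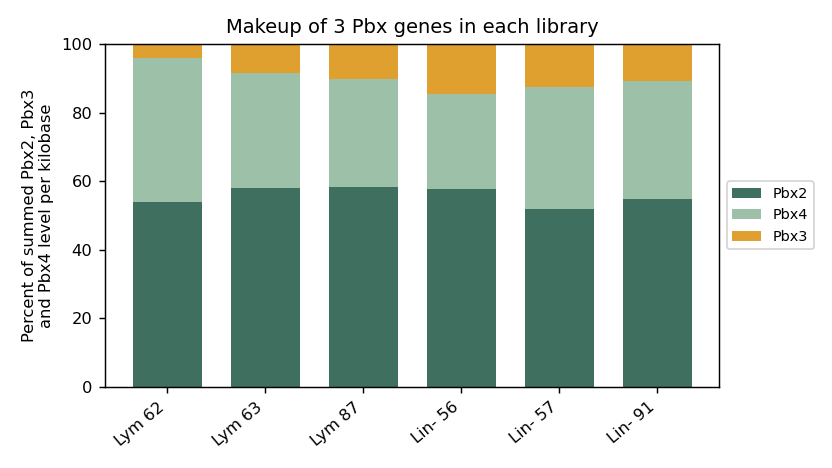
Share of Pbx2, Pbx4 and Pbx3 in their summed level per kilobase, in percent, with a stacked bar for each library. Pbx2 holds 52.0% to 58.2% throughout, and the Pbx3 share is smallest in Lym mouse 62 (3.98%) and largest in Lin- mouse 56 (14.7%).

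Pknox1, the Prep1 gene that competes with Meis proteins for Pbx, was the second most abundant member (ENSMUSG00000006705.13; plus strand, chr17:31564734-31607693, 13 merged exons). It was at 1973, 1936 and 2171 normalized counts in Lin- mice 56, 57 and 91 and at 2440, 1965 and 2319 in Lym mice 62, 63 and 87. The Lym value of mouse 63 lay inside the Lin- range, and the other 2 Lym values above it. The log2 fold change was 0.14 ± 0.13 (SE, limma adjusted p = 0.701; 95% interval -0.15 to 0.43). This interval leaves out a doubling or a halving, which are 1 and -1 on this scale. Unlike Meis1, Pknox1 was not far below its other values in Lin- mouse 57, and so the ratio of Meis1 to Pknox1 per kilobase was 3.84 there against 5.16 to 7.57 in the other libraries. Likewise the ratio of Meis1 to the summed Pbx genes per kilobase was 2.91 in Lin- mouse 57 and 5.70 to 7.10 in the others.

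Pknox2 (minus strand, chr9:36890982-37147407) had 2 reads in Lym mouse 63, 1 in Lym mouse 87 and 0 in the other 4 libraries. It was at or under the limit of 3 reads everywhere, and no fold change is given.

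Left out in turn, each mouse moved the 5 fold changes by different amounts. For Meis1 the log2 fold change ran from 0.03 without Lin- mouse 57 to 0.47 without Lin- mouse 56. For Pbx3 it ran from -0.95 without Lym mouse 87 to -0.37 without Lym mouse 62. Those of Pbx2 (0.07 to 0.20) and Pknox1 (0.08 to 0.23) kept to a narrow range, and Pbx4 ran from 0.0034 to 0.39. None of the 5 passed in any of these fits. Without Lym mouse 87, where limma put 9.67% of all genes past an adjusted p of 0.05, the adjusted p-values of Meis1, Pbx2, Pbx4 and Pknox1 were 0.305, 0.536, 0.461 and 0.629.

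**Figure D4:**
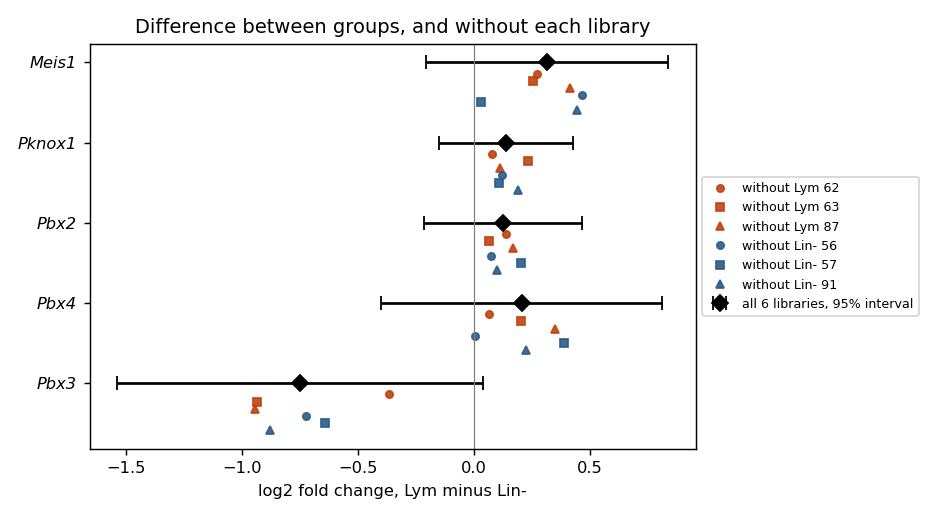
Log2 fold change of the 5 tested members, Lym minus Lin-, with all 6 libraries (black diamonds with 95% intervals) and without each library in turn (coloured symbols below each diamond). Every 95% interval includes 0, Pbx3 is the only tested member below 0 (-0.75), and the value of Meis1 without Lin- mouse 57 is 0.03.

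The members differed from each other in pattern, as the genes nearest to each showed. Nearest to Pbx2 were Adar, an RNA-editing deaminase (root mean square difference 0.032), Txlng (0.0411) and Rgl2 (0.0445). Nearest to Pknox1 were Jarid2, a subunit of Polycomb complex PRC2 (0.0356), Swap70 (0.0451) and the helicase gene Ighmbp2 (0.0463). Pbx4 was nearest to Zfand1 (0.0628), D2hgdh, a 2-hydroxyglutarate dehydrogenase (0.0633), and Fam13b (0.0708). Pbx3 was nearest to Pstk, a kinase acting on seryl-tRNA (0.11), the ribokinase gene Rbks (0.139) and Prr13 (0.14). Pstk, like Pbx3, was lowest in Lym mouse 62, at 79.6 normalized counts, and highest in Lin- mouse 57, at 279. Each is the smallest of 9186 differences over 6 libraries and is a description only. Among the members themselves, Pbx2 and Pknox1 had the smallest difference (0.189) and Meis1 and Pbx3 the largest (0.795). Pbx2 itself varied by only 0.119 and Pknox1 by 0.128, so the smallest difference does not show a shared pattern.

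The other TALE homeobox genes were represented by Tgif1 and Tgif2, repressors that act on TGF-beta target genes. The remaining 7 of the 9 listed, the Irx genes and Mkx, had at most 4 reads in any library. Tgif1 was at 574, 806 and 572 normalized counts in Lin- mice 56, 57 and 91 and at 1514, 1065 and 696 in Lym mice 62, 63 and 87, so that Lym mouse 87 lay inside the Lin- range. Its log2 fold change was 0.69 ± 0.28 (SE, limma unadjusted p = 0.0362, adjusted p = 0.467). Without Lym mouse 87, where 9.67% of all genes passed in limma, it was 0.98 (limma adjusted p = 0.0234). Without Lym mouse 62 it was 0.42 (limma adjusted p = 0.847). Tgif2 went the other way, at 131, 81.8 and 63.9 in Lin- against 34.8, 33.6 and 78.1 in Lym, and its log2 fold change was -0.94 ± 0.45 (limma adjusted p = 0.507).

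Of 15 proteins known to bind, modify or act with these cofactors, all 15 genes were tested, 10 were higher and 5 lower in Lym by mean and none passed in limma. Their median log2 fold change was 0.26, against -0.01 over all genes. At an unadjusted p under 0.05 there were 4 higher, against 5.96% of all genes, and 0 lower, against 4.27%. In the same number, 4, the Lym values were all above the Lin- values, against 8.49% of all genes. Crebbp, the CREB-binding acetyltransferase, was at 7200 to 7329 normalized counts in Lin- and at 11370, 11785 and 9300 in Lym mice 62, 63 and 87, with no overlap (log2 fold change 0.57 ± 0.12, SE; limma adjusted p = 0.420). DESeq2, which put 0.642% of all genes past the threshold, called Crebbp (adjusted p = 0.0367). Ep300, its paralog, was at 7279 to 7542 in Lin- and 8142 to 10423 in Lym (0.37 ± 0.12; limma adjusted p = 0.446). Ncor1, a corepressor, was at 14095 to 15274 in Lin- and 15762 to 20064 in Lym (0.31 ± 0.12; limma adjusted p = 0.461). Myh9, a myosin heavy chain reported to bind Pknox1, overlapped between the groups (0.27 ± 0.15; limma adjusted p = 0.547). In Crebbp, Ep300 and Ncor1 the lowest Lym value was that of mouse 87. Without that mouse their limma adjusted p-values were 0.00664, 0.0198 and 0.0429, in a fit that put 9.67% of all genes past 0.05. The log2 fold change of Myh9 was 0.17 without that mouse.

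Of 15 genes reported as targets or effectors of Meis1 or of Hoxa9 with Meis1, 13 were tested, 11 were higher and 2 lower in Lym by mean, and none passed in limma. The median log2 fold change was 0.45. At an unadjusted p under 0.05 there were 8 higher and 0 lower, and in 6 genes the Lym values were all above the Lin- values, shares to be read against the 5.96%, 4.27% and 8.49% of all genes given above. Myb, a transcription factor of blood progenitors, was at 23477, 25884 and 21926 normalized counts in Lin- mice 56, 57 and 91 and at 43579, 29322 and 27613 in Lym mice 62, 63 and 87 (log2 fold change 0.47 ± 0.18, SE; limma adjusted p = 0.460). Without Lym mouse 62 the value for Myb was 0.26 (limma adjusted p = 0.844). For Flt3, a receptor tyrosine kinase of progenitors, the log2 fold change was 0.69 ± 0.22 (limma adjusted p = 0.441). Its lowest Lym value, 11811 in mouse 87, lay just above the highest Lin- value, 11410. Without that mouse, where 9.67% of all genes passed in limma, the log2 fold change was 0.97 (limma adjusted p = 0.0037). Cd34, a progenitor surface protein, was at 4025 to 6152 in Lin- and 6207 to 7099 in Lym (0.45 ± 0.16; limma adjusted p = 0.451). Lmo2, a bridging factor of transcription complexes, overlapped (0.17 ± 0.16; limma adjusted p = 0.708). The sum of the progenitor markers Kit, Cd34 and Flt3, of which the list shares Cd34 and Flt3, was also higher in Lym. It was 1016 to 1031 CPM in Lin- and 2124, 1998 and 1086 CPM in Lym mice 62, 63 and 87. These markers did not move alike: in Lym mouse 87 Cd34 was at its highest, 7099 normalized counts, and Kit at its lowest, 3158. Their part in the counts above was not tested. In Lin- mouse 57, where Meis1 was lowest, Flt3 had the lowest and Myb the highest of the 3 Lin- values.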

How the data were processed

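Total RNA of 6 mice (3 Lym, 3 Lin-, grouped by the labels, with no pairing or batch named) was made into libraries with 12 PCR cycles and read with 38 bases, per the labels' protocols. The submitters' processing notes list GRCm38.p6 as the build, and DESeq2, featureCounts 1.6.4, STAR 2.6.1d, Trim Galore 0.6.4 and bcl2fastq as tools. Each deposited library column is a normalized signal: the authors divided gene counts by the size factor of that library. Of the values up to 10000, 100% were whole multiples of the library's step (tolerance 0.01), which gave back whole reads. Per the file headers the authors also deposited a log2 fold change, a Wald score with its standard error, and a p-value with its adjusted form. The deposited gene length equalled the merged exons of GENCODE M21 for all 8 genes.

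limma 3.58.1 (R 4.3.3) with the trend option was fitted on log2(normalized count + 2) over all genes with at least 10 in at least 3 libraries. The recovered reads went into edgeR 4.0.16, limma-voom and DESeq2 1.42.0. The fits were tested on simulated data. Alternatives covered tool, scaling, filter, pseudocount, trend and each mouse left out. Floors of 3 reads and Poisson intervals describe counting error alone, as PCR duplicates were not marked. Named genes were all members, up to 4 most abundant tested genes of each list, the 3 genes nearest in pattern to each tested member, and overlapping genes. Hoxa7, Hoxa10 and Hoxa11, and the markers given as values, were added after their values were seen. The members and lists were chosen with earlier results of these data known.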

Additional observations from a re-analysis of the deposited data

How the results depend on the processing

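The 5 tested members kept their direction and stayed above an adjusted p of 0.05 in all 90 values from 18 alternatives each, the lowest adjusted p being 0.121 for Pbx3 with DESeq2 without Lym mouse 87. The count over all genes, 0 with limma, was 203 with DESeq2, 5 without the low-value filter, 1 with a pseudocount of 8, and 0 to 1348 when a mouse was left out, with 1348 without Lym mouse 87 and 1 without Lin- mouse 91. Without Lym mouse 87, chosen after seeing the data, edgeR gave 1286 and DESeq2 2047. With all mice edgeR also gave 0, and 1442 genes had an unadjusted p under 0.05, against 1459 with limma. The cause was not tested. The log2 difference of the Meis1 to Hoxa9 ratio ran from -0.14 to 0.014 when a mouse was left out, turning direction without Lin- mouse 56. That of Lmo2 ran from -0.0074 to 0.28, turning without Lym mouse 62. Of the 11 other genes named from lists, 7 passed in some alternative, 17 of these 18 passes being without Lym mouse 87. The order of the members was unchanged with the longest transcript in place of merged exons. No paired analysis was possible because the labels name no pairing and no donor for each recipient. Depth limits Meis2, Meis3 and Pknox2, with at most 4 reads.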
